A study of Mus musculus with 16 samples.

Results

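The uncoupling protein genes Ucp1, Ucp2 and Ucp3, 4 further genes of heat production in fat (Cidea, Dio2, Prdm16 and Elovl3) and the β-adrenergic receptor genes Adrb1 and Adrb3 were followed in epididymal white fat of male C57BL/6J mice. They were found by gene symbol in the mRNA table, with transcripts summed by gene identifier, and are 9 of its 27150 genes. There were 4 groups of 4 libraries. Mice of the first ate a normal diet and those of the other 3 a high-fat diet (HFD), which was given alone, together with metformin, a drug for type 2 diabetes, or together with resveratrol, a polyphenol of grapes. The mice were 6 weeks old at purchase. The HFD supplied 60% fat and had lasted 8 weeks when treatment with either drug began, and treatment went on for 6 weeks. The age of the mice at collection is not given in the sources used here. Resveratrol replicate 4 held Crisp1, an epididymal secretory gene, at 12131 CPM (counts scaled to equal library totals) and was left out, so 15 libraries remained.

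Brown and beige fat cells burn fuel through UCP1, a carrier of the inner mitochondrial membrane that lets protons return without making ATP. Noradrenaline released by sympathetic nerves acts on β-adrenergic receptors of the fat cell, raises cyclic AMP, and so drives both lipolysis and the transcription of heat-producing genes. White fat such as the epididymal pad normally holds few cells that make UCP1, while its fat cells carry the β3-receptor.

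The libraries held 13350585 to 20531032 mRNA counts. The column code of 1 HFD library and of 1 metformin library was found in no sample title, and its letters gave the group only. The text calls these libraries HFD unmatched and metformin unmatched. The codes of HFD 1, 2 and 3 begin alike and that of HFD unmatched differs, and what the codes mark is not given in the sources used here. The labels also mention retina and skeletal muscle. The retina markers summed to 2.25 to 8.11 CPM and the skeletal muscle markers to 33.4 to 153 CPM, against 12150.0 to 28360.0 CPM for 12 adipocyte markers, whose ranges overlapped among all 4 groups. Within that adipocyte sum, Lep had means of 403 CPM on the normal diet and 3188 CPM on HFD. Cfd had 5924 and 886 CPM, so overlapping sums do not measure the share of adipocytes. A set of 5 libraries was rich in genes of ciliated epithelium, at 313 to 870 CPM against at most 10.5 CPM elsewhere. It comprised normal diet 2, resveratrol 2 and metformin unmatched, 2 and 4. HFD unmatched stood apart from HFD 1 to 3 in 12 macrophage markers, which summed to 1780.0 CPM there and to 4581 to 5302 CPM in the others. Its fibroblast and preadipocyte markers summed to 3750.0 CPM, against 6807 to 7185 CPM in HFD 1 to 3.

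Ucp3 and Ucp2 are neighbours on chromosome 7 and are read in the same direction. In the deposited annotation on GRCm38, Ucp3 (ENSMUSG00000032942) spans chr7:100472990-100486432 and Ucp2 (ENSMUSG00000033685) spans chr7:100493337-100502020, 6905 bases further along. Their promoter windows are shown because these neighbours were the uncoupling protein genes with enough counts to test, and their values lay in opposite directions in HFD 1 to 3. RefSeq's GRCm38.p6 table gave windows for 6 of the 9 genes, each from 250 bases before to 50 bases after the start. The windows below are on the plus strand at chr7:100472741-100473040 (Ucp3) and chr7:100493108-100493407 (Ucp2). Capitals mark TGACG, the core of a cyclic AMP response element, and GGGCGG, a GC box, on either strand (read as CGTCA and CCGCCC where they lie on the opposite strand).
Ucp3: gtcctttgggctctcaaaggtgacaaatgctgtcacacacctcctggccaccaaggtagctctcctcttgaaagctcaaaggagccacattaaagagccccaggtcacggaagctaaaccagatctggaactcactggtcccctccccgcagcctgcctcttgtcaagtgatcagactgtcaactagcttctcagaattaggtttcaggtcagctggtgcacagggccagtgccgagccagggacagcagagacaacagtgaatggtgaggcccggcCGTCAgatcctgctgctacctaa
Ucp2: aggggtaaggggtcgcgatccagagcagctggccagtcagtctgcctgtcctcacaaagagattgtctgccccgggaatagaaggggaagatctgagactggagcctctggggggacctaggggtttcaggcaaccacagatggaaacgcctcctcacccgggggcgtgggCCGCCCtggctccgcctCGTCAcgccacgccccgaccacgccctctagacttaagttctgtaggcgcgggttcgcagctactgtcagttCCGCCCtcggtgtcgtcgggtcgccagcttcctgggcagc

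The Ucp3 window held 1 TGACG match, 28 bases past the start, and no GGGCGG. The Ucp2 window held 1 TGACG match 62 bases before the start and 2 GGGCGG matches, and no match of either overlapped another. TGACG was found in 20.8% and GGGCGG in 35.7% of all 32851 windows of this length. CCAAT (37.4% of all windows) and TATAA (24.9%) were found in neither. G and C made up 55.0% of the Ucp3 window and 64.3% of the Ucp2 window. Of the other members with a window, Ucp1, Dio2 and Adrb1 held TGACG. Prdm16 did not.

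On a scale corrected for transcript length and library total (FPKM, recomputed from the counts and lengths), the receptor Adrb3 was the most abundant of the 9 and Ucp1 the least. Median FPKM over the 15 libraries was 281.9 for Adrb3, 79.2 for Ucp2 and 22.5 for Ucp3. It was 3.46 for Adrb1, 3.33 for Prdm16, 1.89 for Cidea, 1.10 for Elovl3, 0.117 for Dio2 and 0 for Ucp1. The heat-production genes that define brown fat were at the low end. The neighbours Adrb1 and Prdm16 in this order overlapped over nearly their whole ranges, from 2.55 to 6.38 FPKM for Adrb1 and from 2.18 to 5.05 FPKM for Prdm16.

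**Figure D1:**
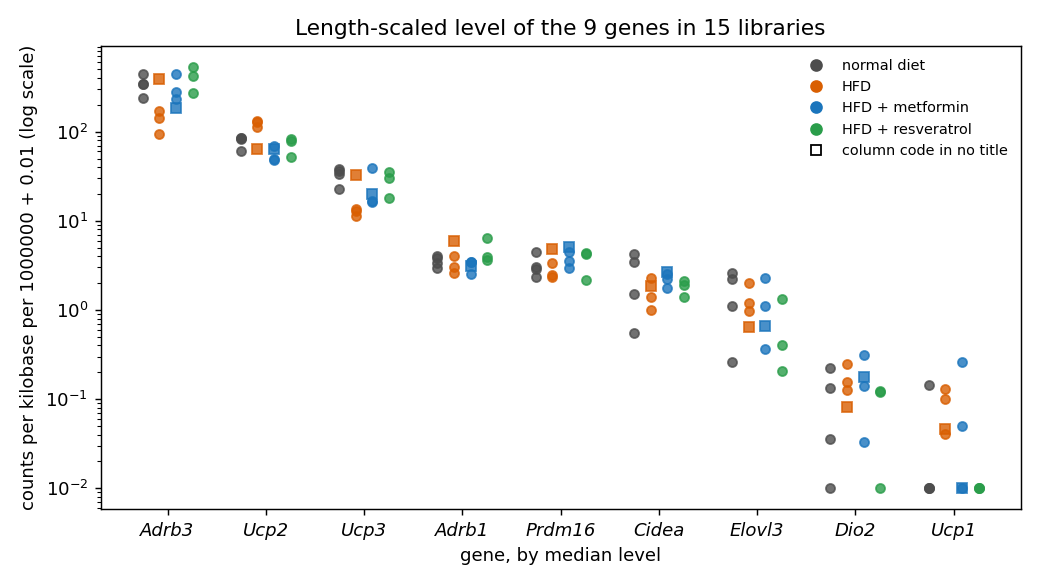
FPKM (counts scaled to transcript length and library total) + 0.01 on a log scale (y axis) for each of the 9 genes (x axis, ordered by median), 1 point per library, coloured by group, with squares for the libraries whose column code is in no title. Adrb3, Ucp2 and Ucp3 sit above all others, with lowest values of 95.4, 48.1 and 11.2 FPKM, and 8 of the 15 libraries have Ucp1 at 0 (drawn at the added 0.01).

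Adrb3 (ENSMUSG00000031489, chr8:27225776-27250616), the β3-receptor through which catecholamines act on rodent fat cells, was read at 945, 632, 700.0 and 529 CPM in normal diet 1 to 4, where CPM are scaled between libraries but not for length. In the HFD group it was read at 310.0, 369.6 and 208 CPM in HFD 1, 2 and 3 and at 793 CPM in HFD unmatched. HFD 1 to 3 thus lay below every normal diet library and HFD unmatched lay within their range. In the metformin group the values were 951 (metformin 1), 355 (unmatched), 432 (2) and 584 CPM (4). In resveratrol 1 to 3 they were 906, 551 and 1187 CPM. The 3 highest values were those of resveratrol 3, metformin 1 and normal diet 1, and the ranges of all 4 groups overlapped.

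Adrb3 did not pass the test in any comparison (edgeR's quasi-likelihood test, Benjamini-Hochberg adjustment over 17535 genes). The log2 fold change was -0.74 (SE 0.41, 95% interval -1.63 to 0.15, adjusted p = 0.205) for HFD against normal diet, from means of 420.1 ± 257 and 701 ± 177 CPM (SD, n = 4 each). The fold change was 0.47 (SE 0.41, adjusted p = 0.448) for metformin and 1.07 (SE 0.44, interval 0.12 to 2.02, adjusted p = 0.178) for resveratrol, each against HFD alone. Without HFD unmatched, the diet difference was -1.26 (adjusted p = 0.0248) and the resveratrol difference 1.59 (adjusted p = 0.0215), both past the threshold of 0.05. Both comparisons share the HFD libraries, so these values are not independent of each other. Fewer cells of a type and less RNA per cell cannot be told apart in such bulk samples.

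Adrb1 (ENSMUSG00000035283, chr19:56722372-56724862), the β1-receptor, which couples to the same cyclic AMP pathway, was far lower. Its values were 10.4, 6.63, 9.33 and 8.69 CPM in normal diet 1 to 4. They were 7.77, 10.4, 6.89 and 15.03 CPM in HFD 1, 2, 3 and unmatched, 8.94, 7.55, 5.70 and 8.52 CPM in metformin 1, unmatched, 2 and 4, and 9.91, 8.54 and 17.1 CPM in resveratrol 1 to 3. The 4 ranges overlapped, and the highest values were in resveratrol 3 and HFD unmatched. The log2 fold changes were 0.19 (interval -0.40 to 0.79, adjusted p = 0.639) for the diet, -0.38 (-0.98 to 0.21, adjusted p = 0.348) for metformin and 0.24 (-0.40 to 0.88, adjusted p = 0.669) for resveratrol.

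The balance of the receptors on the length-corrected scale differed between libraries. HFD 1 to 3 had Adrb3 to Adrb1 ratios (FPKM) from 36.9 to 47.4, and HFD unmatched had 66.4. The ratio was 70.9 to 117 on the normal diet, 58.7 to 128 with metformin and 75.9 to 108 with resveratrol. All 4 HFD ratios lay below all 4 of the normal diet, which is a description and was given no test.

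Ucp1 (ENSMUSG00000031710, chr8:83290352-83298452), the uncoupling protein that defines brown fat, was too low to test. It had 22 counts in the 15 libraries together and 0 in 8 of them. Normal diet 1 to 4 had 0, 0, 4 and 0 counts. HFD 1, 2, 3 and unmatched had 1, 4, 3 and 1, metformin 1, unmatched, 2 and 4 had 0, 0, 1 and 8, and resveratrol 1 to 3 had 0. In resveratrol 1 to 3 a count of 0 allows up to 0.175, 0.218 and 0.178 CPM of the total, taking 3 counts as the limit and covering counting error only. Ucp1 was given no test, so these counts neither show nor exclude a difference between groups. The other brown fat markers ranged widely. Kcnk3, a potassium channel, was the highest, at 17.3 to 86.9 CPM. Otop1, a proton channel, ranged from 0.319 to 23.2 CPM and Ppargc1a, a coactivator, from 2.82 to 21.7 CPM. Ppargc1a had the higher mean of these 2 in every group but HFD, where it was at 4.30 CPM and Otop1 at 13.5 CPM. Cox8b, a brown fat subunit of cytochrome c oxidase, was at 0.9985 to 3.50 CPM and Lhx8 at no more than 4 counts in any library. The 9 listed markers in the table, with Ucp1 and Cidea among them, summed to 50.7 to 85.9 CPM on the normal diet, 80.0 to 126 CPM on HFD, 39.1 to 84.2 CPM with metformin and 62.2 to 74.0 CPM with resveratrol. Kcnk3 had the largest mean of the 9 in every group, at 41.3, 74.7, 40.9 and 50.05 CPM in the same order. Its own diet difference did not pass (log2 0.86, adjusted p = 0.0861). Of the 7 tested, 2 rose with the diet (Otop1 and Cox7a1) and 1 fell (Ppargc1a), where 13.8% of all genes were called as higher and 9.34% as lower. Their median log2 fold change was 0.87, against -0.04 over all genes. An unadjusted p under 0.05 was held by 6 of the 7, against 6589 of all 17535 tested genes. The 6 included Ppargc1a, which fell.

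Ucp2, which is related to UCP1 but is made in many tissues and is abundant in macrophages, was the only member to pass the test in any comparison. It was read at 176, 225, 243 and 255 CPM in normal diet 1 to 4. HFD 1, 2, 3 and unmatched had 323, 357, 383.5 and 183 CPM, and metformin 1, unmatched, 2 and 4 had 215, 180.5, 117 and 143 CPM. Resveratrol 1 to 3 had 217, 205 and 167 CPM. HFD 1 to 3 held the 3 highest values of all libraries, and HFD unmatched lay below 3 of the 4 normal diet libraries. The metformin and HFD ranges overlapped only through HFD unmatched, which metformin 1 exceeded.

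Ucp2 fell with metformin, from 312 ± 89.2 to 164 ± 42.8 CPM (SD, n = 4 each). The log2 fold change was -0.93 (SE 0.23, interval -1.43 to -0.43, adjusted p = 0.0247), a level 0.525 times that of HFD alone. Of the 8 tested members it was the only 1 called for metformin, where 13.9% of all tested genes were called (6.09% as higher, 7.84% as lower). The call was lost when HFD 1, 2 or 3, metformin 2 or metformin 4 was left out (adjusted p between 0.0501 and 0.0828), when both groups were fitted alone (0.0705) and when resveratrol 4 was included (0.192). Without the 5 libraries rich in ciliated genes, which leaves metformin 1 alone in its arm, assumed to vary like the other groups, the fold change was -0.53 (adjusted p = 0.490). With DESeq2 the adjusted p was 0.00126.

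For the diet, the log2 fold change of Ucp2 was 0.47 (SE 0.23, interval -0.02 to 0.97, adjusted p = 0.150), and for resveratrol it was -0.67 (SE 0.25, interval -1.21 to -0.12, adjusted p = 0.144). Without HFD unmatched both passed, at 0.64 (adjusted p = 0.0255) and -0.83 (adjusted p = 0.0225). Macrophage markers were highest in HFD 1 to 3, as was Ucp2. Across HFD 1, 2 and 3 their sum took the values 4581, 5143 and 5302 CPM, the order that Ucp2 has, whereas HFD unmatched had 1780.0 CPM, against 1268 to 2200.0 CPM on the normal diet, 1053 to 1585 CPM with metformin and 1382 to 1474 CPM with resveratrol. Within the other groups the order of the sum was not that of Ucp2. Normal diet 2 had the lowest sum of its group (1268 CPM) and 225 CPM of Ucp2, against 1472 and 176 CPM in normal diet 1. Resveratrol 3 had the highest sum of its group (1474 CPM) and the lowest Ucp2 (167 CPM). Of the 12 macrophage markers, 8 rose with the diet (against 13.8% of all genes), 10 fell with metformin (7.84%) and 8 fell with resveratrol (3.09%). Cd163, Mertk and Cd14 had lower means on HFD than on the normal diet. The median log2 fold changes of the 12 were 1.34, -1.60 and -1.66 with all 15 libraries. Without the 5 libraries rich in ciliated genes they were 1.22 (diet), -1.53 (metformin 1 alone in its arm) and -1.72 (resveratrol). None of the 12 was at 0 in a library. Their part in the Ucp2 values was not tested.

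**Figure D2:**
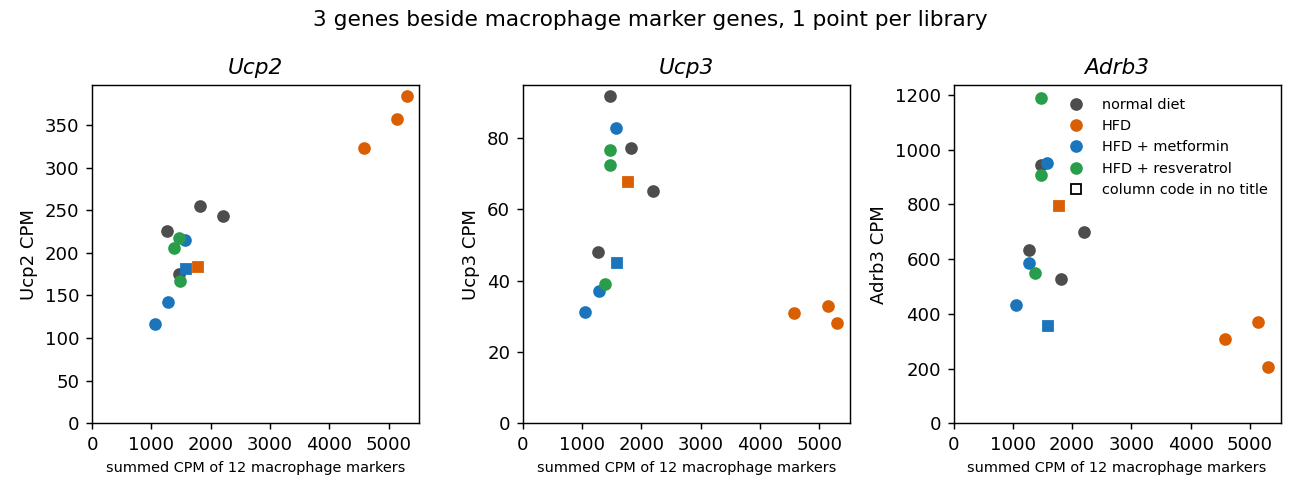
CPM of Ucp2, Ucp3 and Adrb3 (y axes) against the summed CPM of 12 macrophage markers (x axis), 1 point per library, coloured by group, with squares for the libraries whose column code is in no title. HFD 1 to 3, at 4581 to 5302 CPM of macrophage markers, have the highest Ucp2 (323 to 383.5 CPM), while their Ucp3 is 28.3 to 32.96 CPM, a range that also holds metformin 2, and their Adrb3 208 to 369.6 CPM, a range that also holds metformin unmatched.

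Ucp3, the uncoupling protein gene best known from skeletal muscle and brown fat, was read at 91.7, 48.1, 65.1 and 77.1 CPM in normal diet 1 to 4. It was read at 30.8, 32.96, 28.3 and 67.8 CPM in HFD 1, 2, 3 and unmatched. In metformin 1, unmatched, 2 and 4 it had 82.7, 45.0, 31.4 and 37.2 CPM, and in resveratrol 1 to 3 it had 72.4, 39.2 and 76.8 CPM. HFD 1 to 3 lay below all normal diet libraries, as for Adrb3, and HFD unmatched lay among them. The ratio of Ucp2 to Ucp3 FPKM was 8.84, 9.51 and 11.8 in HFD 1, 2 and 3, but 1.96 in HFD unmatched and 1.60 to 4.57 in the other 11 libraries.

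The log2 fold change of Ucp3 for the diet was -0.82 (SE 0.36, interval -1.60 to -0.04, adjusted p = 0.118), from means of 39.9 ± 18.6 and 70.5 ± 18.5 CPM (SD, n = 4 each). It was 0.30 (SE 0.36, adjusted p = 0.596) for metformin and 0.65 (SE 0.39, adjusted p = 0.335) for resveratrol. The diet difference passed without HFD unmatched, at -1.21 (adjusted p = 0.0207), and without the libraries rich in ciliated genes, at -0.97 (adjusted p = 0.0438). Of the normal diet and HFD libraries, the latter setting left out only normal diet 2, which had the lowest Ucp3 of its group. The 12 skeletal muscle markers summed to 153, 47.8, 65.6 and 104 CPM in normal diet 1 to 4. They summed to 61.4 to 78.8 CPM in HFD 1 to 3 and to 134 CPM in HFD unmatched. The HFD library with the highest Ucp3 thus also had the highest sum. In resveratrol 1 to 3 the sums were 108, 62.5 and 137 CPM, in the order of Ucp3. In metformin 1, unmatched, 2 and 4 they were 86.6, 55.2, 33.4 and 98.3 CPM. There metformin 4 had the highest sum, but metformin 1 the highest Ucp3. Acta1 and Myl1, which had counts in every library, made up most of these sums in all libraries but normal diet 1. The muscle creatine kinase Ckm and the fast myosin Myh4 were each at 0 in 9 of the 15 libraries, but had 167 and 622 counts (12.9 and 47.9 CPM) in normal diet 1, the library with the highest Ucp3. In HFD unmatched they had 3 and 13 counts. The part of muscle RNA in the Ucp3 values was not tested.

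The counts of Ucp3 came from 4 transcripts, and 1 of them, ENSMUST00000133850 (chr7:100472994-100485409), was either high or low. It had 523 and 444 counts in normal diet 3 and 4, 438 in HFD unmatched, 402 and 166 in metformin 1 and 2 and 472 in resveratrol 1. In the other 9 libraries it had 22 to 37 counts. It made up 39% of the Ucp3 counts of HFD unmatched and 4.07% to 4.2% of those of HFD 1 to 3. Without it, Ucp3 was at 41.4 CPM in HFD unmatched, 27.1 to 31.6 CPM in HFD 1 to 3 and 37.1 to 88.9 CPM on the normal diet, and the diet difference was -0.78 (adjusted p = 0.0971). How the authors shared reads among transcripts is not given in the sources used here.

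**Figure D3:**
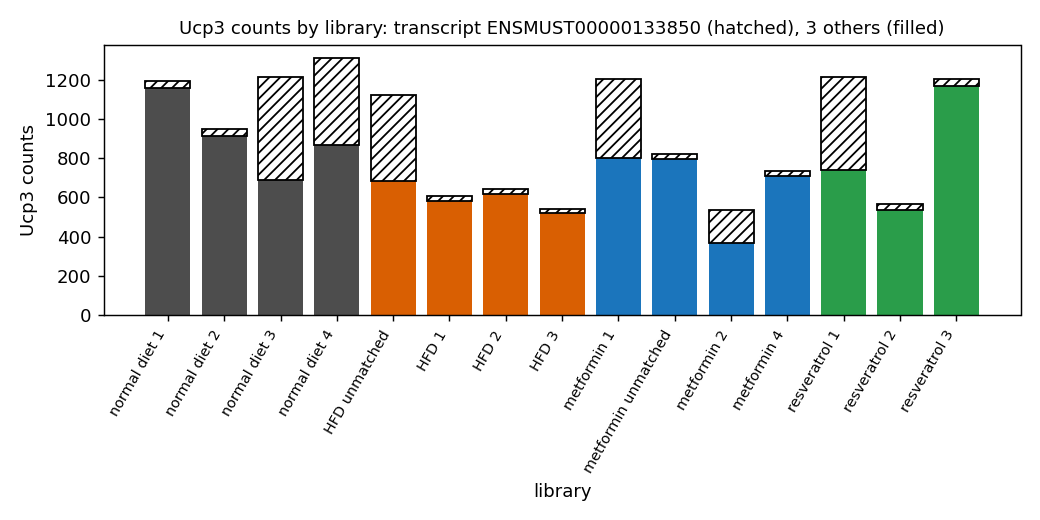
Counts of Ucp3 (y axis) in the 15 libraries (x axis, coloured by group), split into transcript ENSMUST00000133850 (hatched) and the 3 other transcripts (filled). The hatched part is 166 to 523 counts in 6 libraries and 22 to 37 counts in the other 9.

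Prdm16 (ENSMUSG00000039410, chr4:154316125-154636873), a transcriptional regulator that directs precursors to the brown fate, was low and even. Its values were 4.70, 9.67, 5.10 and 4.17 CPM in normal diet 1 to 4, 7.77, 4.66, 6.27 and 8.81 CPM in HFD 1, 2, 3 and unmatched, 7.08, 6.45, 5.58 and 7.71 CPM in metformin 1, unmatched, 2 and 4, and 4.48, 7.58 and 5.75 CPM in resveratrol 1 to 3. Group means lay between 5.91 and 6.88 CPM, and normal diet 2 stood above the other 3 of its group. The log2 fold changes were 0.22 (interval -0.40 to 0.83), -0.04 (-0.65 to 0.58) and -0.21 (-0.88 to 0.45) for the diet, metformin and resveratrol, with adjusted p of 0.607, 0.942 and 0.725. Its counts were spread over 13 transcripts, of which the largest held 30.9%.

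Dio2 (ENSMUSG00000007682, chr12:90724552-90738438), the deiodinase that activates thyroid hormone inside the cell, passed the count filter with 185 counts in all. Normal diet 1 to 4 had 2, 13, 23 and 0 of them. HFD 1, 2, 3 and unmatched had 28, 17, 14 and 7 counts, metformin 1, unmatched, 2 and 4 had 2, 17, 27 and 15, and resveratrol 1 to 3 had 11, 9 and 0. In each group the highest library had several times the counts of the lowest, or the lowest had none. The intervals of its log2 fold change were wide, at -1.47 to 2.92 for the diet, -2.17 to 2.14 for metformin and -3.46 to 1.44 for resveratrol (adjusted p = 0.633, 0.995 and 0.636).

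Cidea (ENSMUSG00000024526), a lipid droplet protein enriched in brown and beige fat cells, was read at 5.08, 3.70, 1.72 and 0.646 CPM in normal diet 1 to 4, the widest spread of the 4 groups. It ranged from 1.18 to 2.82 CPM on HFD, from 1.82 to 2.95 CPM with metformin and from 1.67 to 2.36 CPM with resveratrol. The HFD range thus lay wholly inside that of the normal diet. The log2 fold changes were -0.49 (interval -1.54 to 0.57), 0.39 (-0.67 to 1.44) and 0.10 (-1.04 to 1.24), with adjusted p of 0.488, 0.610 and 0.932.

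Elovl3 (ENSMUSG00000038754, chr19:46131897-46135307), an elongase of very long chain fatty acids that responds to cold in brown fat, varied 12.6-fold between its lowest and highest library. It had 0.385 to 3.75 CPM on the normal diet, 0.966 to 3.24 CPM on HFD, 0.550 to 3.35 CPM with metformin and 0.299 to 1.86 CPM with resveratrol. The log2 fold changes were -0.24 (interval -1.79 to 1.32), -0.25 (-1.81 to 1.31) and -1.01 (-2.77 to 0.74), with adjusted p of 0.837, 0.838 and 0.486. The intervals of Dio2 and Elovl3 include changes of more than 1 on the log2 scale in either direction for the diet and for metformin. Counts of Elovl3 ran from 5 to 70 per library.

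**Figure D4:**
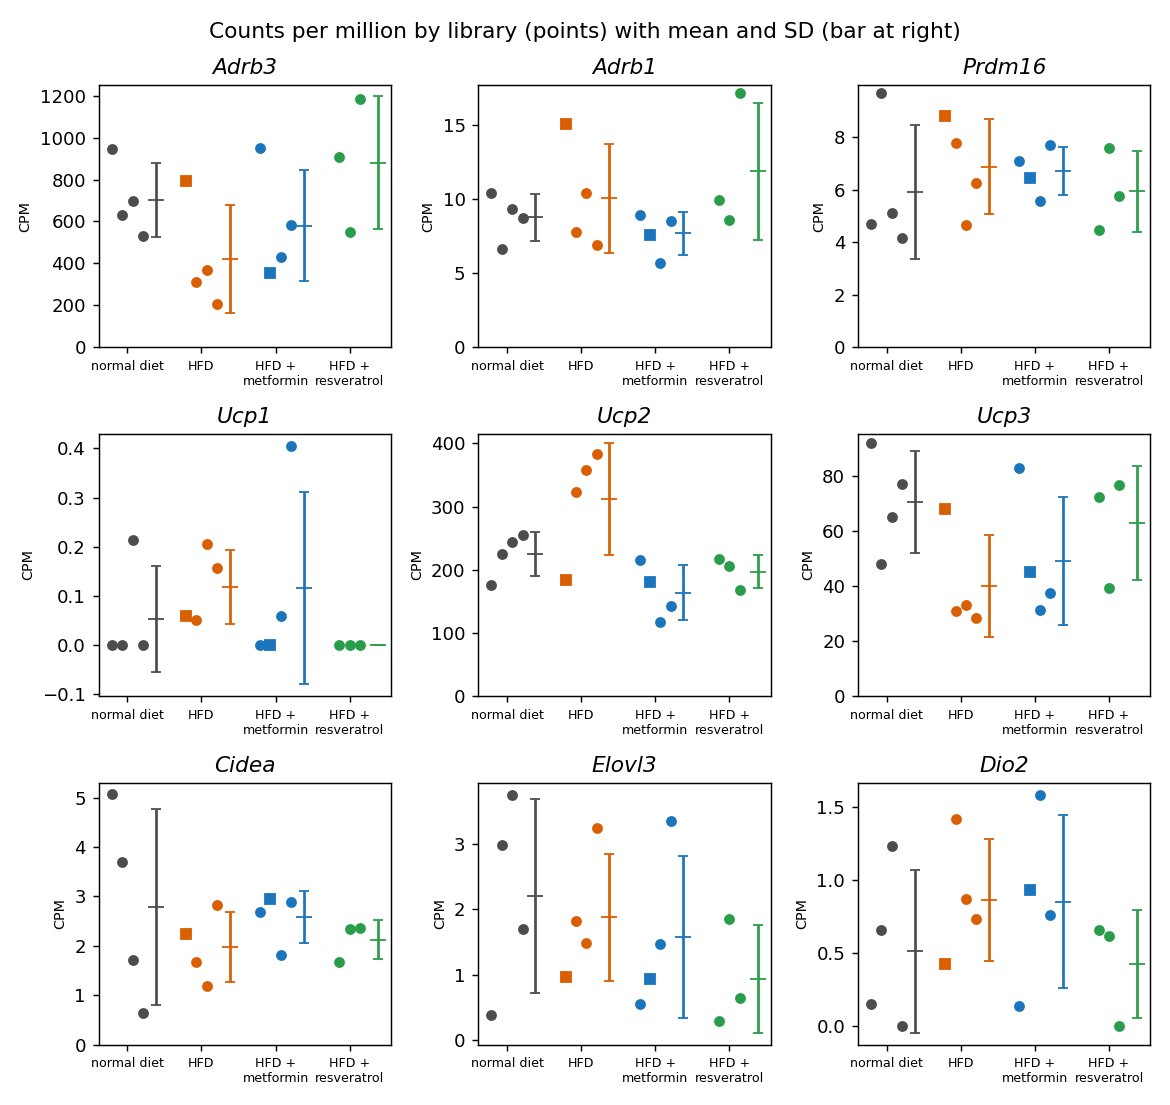
CPM of the 9 genes (y axes, 1 panel each) in the 4 groups (x axis), with points for libraries, squares for those whose column code is in no title, and a bar at the right of each group for its mean and SD. The ranges of neighbouring groups overlap for all 9 genes, and HFD unmatched lies away from HFD 1 to 3 for Adrb3 (793 CPM), Ucp2 (183 CPM) and Ucp3 (67.8 CPM).

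With the 4 groups ordered by mean CPM, no gene had neighbouring groups that differed by more than the larger of their SDs. Adrb3 ran from resveratrol (881 CPM) through normal diet (701) and metformin (581) to HFD (420.1), and Ucp2 from HFD (312) through normal diet (225) and resveratrol (196.5) to metformin (164). Ucp3 ran from normal diet (70.5 CPM) through resveratrol (62.8) and metformin (49.1) to HFD (39.9). Of the 8 tested members, 0 passed the threshold for the diet with edgeR, where 23.1% of all tested genes passed. With DESeq2 0 passed too, where 2961 genes were higher and 2376 lower of 17492. An unadjusted p under 0.05 was held by 1 (edgeR) and 2 members (DESeq2), against 6589 of 17535 and 7119 of 17492 genes. For resveratrol, 0 passed with edgeR, against 4.17% of all genes (1.09% higher, 3.09% lower). With DESeq2 0 passed as well, where 725 genes were higher and 1428 lower of 16185. With each tool 2 members had an unadjusted p under 0.05 for resveratrol, against 3931 of 17535 and 4318 of 16185 genes. The median log2 fold change of the 8 was -0.02, -0.02 and -0.05 for the diet, metformin and resveratrol, and over all tested genes it was -0.04, 0.04 and 0.04. Without both unmatched libraries, 3 of 8 passed for the diet (Ucp2 higher, Ucp3 and Adrb3 lower), where 25.3% of all genes passed. Under that setting 1 passed for metformin (Ucp2 lower), against 15.1% of all genes, and 2 for resveratrol (Adrb3 higher, Ucp2 lower), against 10.6%.

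**Figure D5:**
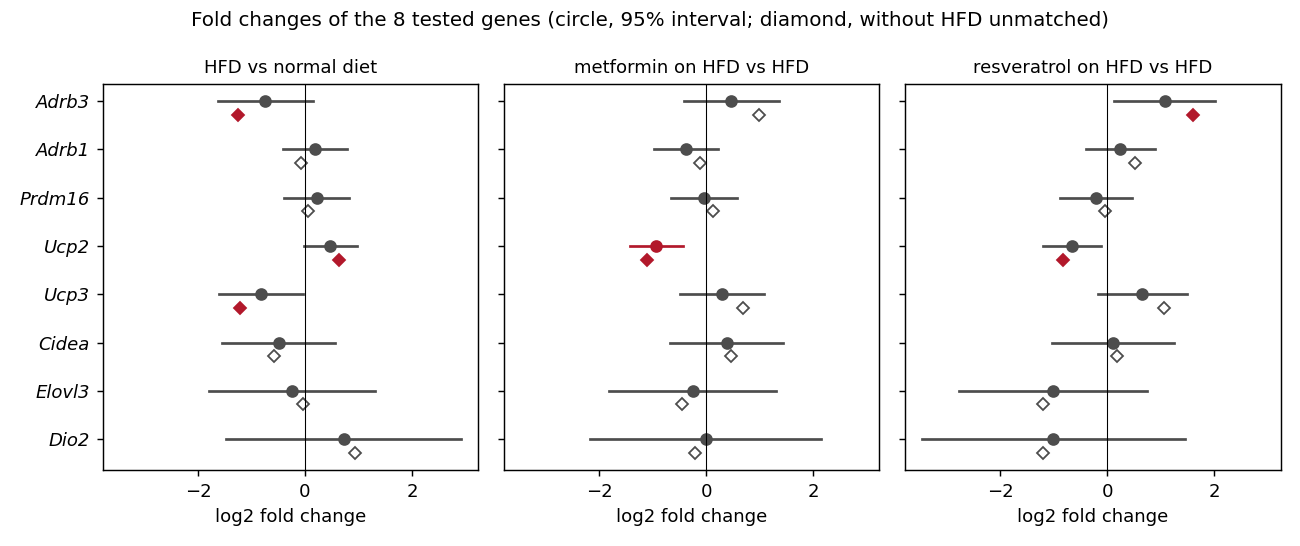
Log2 fold changes (x axis) of the 8 tested genes (y axis) in the 3 comparisons, with circles and 95% intervals for the 15 libraries and diamonds for the value without HFD unmatched; red marks an adjusted p below 0.05. With 15 libraries only Ucp2 under metformin is red (-0.93), and without HFD unmatched Adrb3 (-1.26) and Ucp3 (-1.21) under the diet and Adrb3 (1.59) under resveratrol are red as well, together with Ucp2 in all 3 comparisons.

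Genes around these members were described from 6 lists of 110 genes. Of the 13 calls named from these lists for metformin, 12 were lost when some 1 library was left out, Otop1 being the exception. None of the 13 passed without the ciliated-rich libraries, a fit that rests on metformin 1 alone in that arm. The 3 calls named for resveratrol were each lost without HFD 1, 2 or 3 or resveratrol 1, 2 or 3. Those fits called only 1 or 2 of all genes, so the loss says little about these 3. None of the 3 passed without the ciliated-rich libraries either. That fit kept resveratrol 1 and 3 and called 8 genes higher and 9 lower of 17384. Among 28 tested brown and beige fat genes, 4 rose and 4 fell with the diet (median log2 -0.06, against 13.8% of all genes higher and 9.34% lower). Otop1, a proton channel enriched in brown fat, rose from 0.553 ± 0.0998 to 13.5 ± 8.23 CPM (log2 4.60, adjusted p = 4.90e-04). HFD 1, 2, 3 and unmatched had 15.9, 11.3, 23.2 and 3.56 CPM, all above the normal diet. Ppargc1a, the coactivator PGC-1α, which drives mitochondrial gene expression, fell from 14.5 ± 5.43 to 4.30 ± 1.12 CPM (log2 -1.75, adjusted p = 0.00588), with all 4 HFD libraries below the normal diet. Clstn3 (log2 1.70), Cox7a1 (1.70) and Pm20d1 (1.03), an enzyme that makes N-acyl amino acids, rose, and Ebf2 (-1.14), a factor that marks brown precursors, fell. The list holds genes that are also made outside brown fat.

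With metformin, 3 of these 28 rose and 1 fell (median 0.16), against 6.09% of all genes higher and 7.84% lower. Ppargc1a rose to 14.1 ± 4.28 CPM (log2 1.71, adjusted p = 0.0163). It stood at 7.77 CPM in metformin 1 and at 15.2 to 17.03 CPM in the 3 metformin libraries rich in ciliated genes, and without all ciliated-rich libraries the fold change was 0.86 (adjusted p = 0.291). In the other groups too the ciliated-rich library was the highest for Ppargc1a, at 21.7 CPM in normal diet 2 and 17.2 CPM in resveratrol 2. Without HFD 1 or 2 the call was lost as well (adjusted p up to 0.0556). Pank1, a pantothenate kinase, rose (1.27) and likewise stood highest in ciliated-rich libraries, at 31.9, 16.1 and 11.7 CPM in metformin 2, 4 and unmatched against 7.70 CPM in metformin 1, at 14.2 CPM in normal diet 2 and at 11.4 CPM in resveratrol 2. Its call held only without normal diet 2, metformin 1, metformin unmatched or resveratrol 2, and was lost in the other 11 of 15 fits that left out a library (log2 down to 0.75) and without all ciliated-rich libraries (0.15, adjusted p = 0.721). Acot2 rose (0.47), a call lost without HFD 1, 2 or 3 or metformin 2 (adjusted p up to 0.0898). Otop1 fell (-2.71). With resveratrol only Otop1 was called, lower (-4.00, adjusted p = 0.0350, up to 0.135 with a library left out), against 3.09% of all genes.

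Among 36 β-adrenergic signalling genes, all tested, 5 rose and 8 fell with the diet (median -0.07), against 13.8% of all genes higher and 9.34% lower. Those that fell included the nuclear receptors Nr4a1 (from 43.7 ± 21.8 to 8.69 ± 1.42 CPM, log2 -2.33) and Nr4a3 (-1.30), which cyclic AMP induces, and the salt-inducible kinases Sik1 (-1.12) and Sik2 (-1.13). Adcy7, an adenylate cyclase abundant in blood cells, rose (1.38). With metformin 1 rose, Sik3 (0.33), and 5 fell, namely Adcy7 (-1.20), Adcy3 (-0.64), Arrb2 (-0.62), Gnai2 (-0.48) and Adcy9 (-0.28), with a median of 0.03, against 6.09% of all genes higher and 7.84% lower. All 6 were lost without HFD 1, 2 or 3, and Adcy9 in 8 of 15 fits that left out a library. The diet call of Nr4a3 was lost without normal diet 3 or HFD 1, 2 or 3 (adjusted p up to 0.0723). With resveratrol 1 fell, Adcy7 (-1.28, adjusted p = 0.0457), against 3.09% of all genes, and it passed only without normal diet 3, HFD unmatched or metformin 2, losing the call in the other 12 of 15 fits (adjusted p up to 0.176). Adcy7 followed the macrophage markers in that its HFD range was 85.6 to 247 CPM with the lowest value in HFD unmatched, and their part in it was not tested.

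The other 4 lists held 7 to 14 tested genes each, and their counts stand against 13.8% of all genes higher and 9.34% lower with the diet and 6.09% and 7.84% with metformin. Of 14 futile cycle genes, which burn ATP without work, Gamt (log2 1.69), for creatine synthesis, and the calcium channel Ryr2 (2.49) rose with the diet, and Gamt (-0.67) and the ADP/ATP carrier Slc25a5 (-0.44) fell with metformin. The Ryr2 call was lost without normal diet 1, 3 or 4, HFD 1, 2 or 3 or metformin unmatched (adjusted p up to 0.0941). The metformin calls were lost in 11 (Gamt) and 6 (Slc25a5) of 15 fits that left out a library, Gamt passing only without normal diet 2 or 4, HFD unmatched or metformin 4, and Slc25a5 losing its call without HFD 1, 2 or 3, metformin 2 or unmatched or resveratrol 1. Of 8 tested genes of catecholamine supply and clearance, the monoamine oxidase Maoa (1.19) rose and Maob (-0.44) fell with the diet. None of the 8 was called for metformin or resveratrol. Th and Dbh, also on that list, were too low to test, with at most 7 and 2 counts in any library. The neuropeptide gene Npy was called higher with the diet (3.32). Its values were 0.609 to 0.679 CPM in HFD 1 to 3 and at most 0.4125 CPM elsewhere. It thus passed the filter on low counts only through the libraries where it was high, and its call is no support for a rise. Npy lost its call without normal diet 1, 2 or 4, metformin 4 or resveratrol 1, in 5 of the 12 fits that kept it, with log2 values from 2.92 to 6.11. Maob lost its call without any 1 of the normal diet libraries, HFD 1, 2 or 3 or resveratrol 1 (adjusted p up to 0.101). Of 7 thyroid hormone genes, the receptor Thra (-0.55) and the hormone-responsive Klf9 (-0.81) fell with the diet, and Thra rose with resveratrol (0.48), against 1.09% of all genes higher. Of 7 relatives of Elovl3 and Cidea, Elovl2 was called for metformin (4.78), from 0.868 ± 0.800 to 23.8 ± 30.6 CPM. It ranged from 1.44 to 67.9 CPM in that group, and without the ciliated-rich libraries the fold change was 0.75 (adjusted p = 0.763).

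Across the 15 libraries, the genes most like each member in log2 CPM were listed by Pearson's r as a description, since the libraries share groups and cell mixtures. The genes most like Ucp2 included Runx1 (r = 0.942) and Cass4 (0.940). Ucp3 was most like Pck1 (0.977), Ncor1 (0.975) and Hoxc6 (0.974), and Adrb3 like Ankef1 (0.934), Cxcl12 (0.930) and Ring1 (0.930). For Adrb1 the first was Arhgef15 (0.902), for Dio2 Ap1s3 (0.903), for Cidea Gm30698 (0.825), for Prdm16 A4galt (0.811) and for Elovl3 Gm10275 (0.805). Between members the highest r was that of Ucp3 and Adrb3 (0.852), and the lowest that of Ucp3 and Dio2 (-0.73).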

How the data were processed

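Total RNA of epididymal fat was sequenced. Per the file headers, the mRNA table deposited by the authors held raw whole-number counts and FPKM per transcript in 16 libraries. GRCm38, HISAT2 and fastp appear in the submitters' processing notes. The counting tool, annotation release and strand setting were not given in the sources used here. Overlapping or antisense genes may share reads. The header had 1 name fewer than the cells, so columns were taken by position and checked against the library totals that the deposited FPKM of 14 libraries imply, their only use. FPKM levels in the text were recomputed from counts and transcript lengths. Of 16 count columns, 14 matched a title and 2 gave a group only. The FPKM columns of those 2 and the lncRNA table, 34 columns of values together, were not used.

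Counts of 91879 transcripts were summed to 27150 genes. The 15 libraries were fitted with edgeR 4.0.16 in R 4.3.3 (filter on low counts, TMM scaling, robust quasi-likelihood fit, group as factor), which left 17535 genes. Tests were two-sided, with Benjamini-Hochberg adjusted p-values over all of them and a threshold of 0.05. DESeq2 1.42.0 was an alternative. Nothing says which libraries share a cage or animal, so p-values reflect only how far these libraries differ. Genes named were the 9 members, up to 6 called genes of each pathway list with the largest change, and the 3 genes most correlated with each member (only the first is printed for 5 members). Some genes that this rule names are not reported here. Members and lists were chosen with earlier results of these data known. The alternatives were all 16 libraries, DESeq2's median-ratio (RLE) size factors in edgeR, DESeq2, no filter, both groups alone, a fit that was not robust and each library left out. Those chosen after seeing the data were leaving out the ciliated-rich libraries (above 100 CPM), both unmatched libraries, or 1 Ucp3 transcript.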

Additional observations from a re-analysis of the deposited data

Results flagged for a closer look

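Within groups of 4, a library whose gap to its nearest neighbour exceeded Dixon's 95% critical share of the group's range was taken as standing apart. Over 27 sets of gene and group, chance alone gives about 1 in 20. Ucp3 in HFD unmatched was 67.8 CPM, the highest of its group. Prdm16 in normal diet 2 was 9.67 CPM, the highest of its group, and this library is rich in ciliated epithelium genes (637 CPM). Ucp1 was highest in normal diet 3 (0.214 CPM, from 4 counts) and in metformin 4 (0.406 CPM, from 8 counts).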

How the results depend on the processing

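Of 195 values of members under settings other than leaving out a library, 179 kept direction and side of the threshold. Genes past the threshold numbered 4050, 2442 and 732 for the diet, metformin and resveratrol. With all 16 libraries they numbered 1531, 179 and 395. For metformin they numbered 4313 with DESeq2, 1541 with no filter, 1142 with both groups alone and 18 without the ciliated-rich libraries, and for resveratrol 2153, 351, 1 and 17. Without both unmatched libraries, resveratrol gave 1855. Leaving out 1 library gave 2722 to 4979, 469 to 3710 and 1 to 2066 genes. Resveratrol gave 1 or 2 genes without HFD 1, 2 or 3 or without resveratrol 1, 2 or 3, and metformin 469 to 595 without HFD 1, 2 or 3. The cause was not tested.

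Directions that turned were all of values that had not passed the test. With all 16 libraries these were Cidea (-0.25) and Adrb1 (-0.16) under resveratrol. Dio2 under metformin was 0.0094 with RLE size factors and 0.015 with both groups alone. Prdm16 under metformin was 0.049 without the ciliated-rich and 0.12 without both unmatched libraries, and Adrb1 under the diet was -0.068 without both unmatched libraries. Leaving out 1 library gave, for metformin, Ucp3 -0.076 to 0.69, Dio2 -0.50 to 0.34, Prdm16 -0.18 to 0.12 and Elovl3 -0.92 to 0.15. For the diet it gave Elovl3 -0.64 to 0.14 and Adrb1 -0.080 to 0.34, and for resveratrol Cidea -0.071 to 0.33 and Adrb1 -0.11 to 0.52. Of 278 values of named pathway genes, 65 lost the threshold and none turned. No paired analysis was possible because the replicate numbers were given in accession order and pair no animals across groups. Depth limits Ucp1, which with 22 counts in all could not be tested.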

Other observations

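In the 3 groups that held libraries both rich and not rich in ciliated epithelium genes, the rich ones had the lower Ucp3. Ucp3 was 48.1 CPM in normal diet 2 against 65.1 to 91.7 CPM in the other normal diet libraries, 31.4 to 45.0 CPM in the rich metformin libraries against 82.7 CPM in metformin 1, and 39.2 CPM in resveratrol 2 against 72.4 and 76.8 CPM. Without transcript ENSMUST00000133850, Ucp3 was still lower in the rich libraries with metformin and resveratrol. On the normal diet it was not, at 46.3 CPM in normal diet 2 and 37.1 CPM in normal diet 3. For Adrb3 the rich libraries were the lower with metformin (355 to 584 CPM against 951 CPM) and resveratrol (551 against 906 and 1187 CPM). They were not on the normal diet, where normal diet 2 had 632 CPM and normal diet 4 had 529 CPM. Adipocyte markers summed to 12150.0 to 21690.0 CPM in the 5 rich libraries and to 18180.0 to 28360.0 CPM in the other 10.

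Resveratrol 4, which entered no comparison above, had 132 counts of Adrb3, 541 of Ucp2, 20 of Ucp3, 103 of Prdm16, 3 of Cidea, 2 each of Adrb1, Dio2 and Elovl3, and 0 of Ucp1. Its adipocyte markers summed to 774 CPM and its epididymal markers to 22260.0 CPM when all 16 libraries were scaled together.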
